A study of Mus musculus with 74 samples.

Results

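The distal ends described here are the windows of chromosomes 1 to 19 that stop within 10 Mb of the last base of their chromosome, in a table that scores the mouse genome in windows of 40 kb (assembly mm9). There are 4769 such windows among 61816 on the autosomes, 251 on each of the 19 chromosomes, out of 68162 windows in the table. The rule that selects them uses position alone, and no measured value enters it. The data are 74 libraries from genome architecture mapping (GAM), each holding the DNA of a single nuclear profile, the slice of 1 nucleus that falls in a thin cryosection. All libraries form 1 group of mouse embryonic stem cells of the line 46C, which carries a green fluorescent protein reporter at Sox1 (strain 129/Ola), grown with serum and LIF and moved to serum-free medium a day before harvest. Since this is a single cell line with no second condition, classes of windows are compared within libraries, between distal windows and other stretches of the autosomes. Single pairs of ends are instead tested by shuffling among libraries of like coverage. Of the library names, 34 begin with f13 and 40 with f14, prefixes that no label explains. Values within each prefix are therefore given beside several of the pooled ones, though not beside all.

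Mouse autosomes are telocentric. The centromere lies at one tip, where the assembly begins with 3 Mb of unknown sequence, and nearly the whole chromosome forms a single long arm that ends at the distal telomere. Telomeres consist of short tandem repeats, bound by the shelterin proteins and extended in stem cells by telomerase, and the subtelomeric DNA next to them is often rich in genes and in repeats. In GAM, a thin slice tends to carry neighbouring loci together. Co-segregation, the percent of profiles in which both loci of a pair were positive, is therefore read as nearness in the nucleus. Detection alone reports how often a locus was cut and its DNA recovered.

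The sequence at the tip shows where the assembly stops, which bears on what the last windows can detect. No autosome of the reference genome (NCBIM37, which is mm9 sequence) ended in unknown bases. On 5 autosomes (1, 12, 13, 14 and 16) the sequence stopped on the letters GAATTC, which the restriction enzyme EcoRI recognises and which read the same on both strands. Of all 61816 autosomal windows, 22 (0.0356%) end on those letters, the 5 tips included. The last 120 bases of chromosomes 1 and 16 are printed 5′ to 3′ on the plus strand with GAATTC in capitals, and neither stretch overlaps an annotated gene.
chr1:197195313-197195432: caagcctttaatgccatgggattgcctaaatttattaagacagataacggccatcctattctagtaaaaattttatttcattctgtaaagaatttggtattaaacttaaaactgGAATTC
chr16:98319031-98319150: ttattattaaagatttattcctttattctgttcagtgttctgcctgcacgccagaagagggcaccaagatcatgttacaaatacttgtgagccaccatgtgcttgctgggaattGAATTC
Of the 5 tips that stop on GAATTC, the last window was positive in 6 libraries on chromosome 1, in 1 on chromosome 12, in 0 on chromosome 13, in 3 on chromosome 14 and in 7 on chromosome 16.

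The distal windows were compared with 3 other classes of autosomal windows. Centromere-proximal windows are the first 10 Mb after the 3 Mb of unknown sequence (4750 windows), interior windows are those between the ends (50872), and the middle windows are the central 10 Mb of each sequenced chromosome (4750, which are also interior). Coverage is the percent of the windows in a region that were positive in a library. Distal coverage was 5.64% ± 3.74 (SD, n = 74 libraries), with a median of 4.83% and a range from 0 to 14.9%. The widest distal coverage was found in f13a3 (14.9%), f13f2 (14.7%) and f14b3 (14.1%), and f13f3 had no positive distal window. The table holds presence calls only, so the read depth behind a call is unknown.

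Detection of the distal ends differed from that of the rest of the autosomes by no more than the test over libraries could separate. A distal window was positive in 4.17 libraries on average (median 4), an interior window in 4.23 (median 4), and a centromere-proximal window in 5.00 (median 5). Distal coverage was 5.64% against 5.72% ± 2.91 for the interior, a difference of -0.0832 percentage points (95% interval over resampled libraries -0.662 to 0.538; higher in 33 of 74 libraries; two-sided sign-flip permutation test, p = 0.792). Within the f13 libraries the difference was 0.274 (p = 0.565, permutation test, n = 34) and within f14 it was -0.386 (p = 0.369, permutation test, n = 40). Against the centromere-proximal ends, at 6.76% ± 4.98, distal coverage was lower by 1.13 percentage points, with an interval that reached across 0 (difference -1.13, -2.25 to 0.0288; higher in 31 of 74 libraries; p = 0.0603). That p was 0.0349 when the windows were weighted to the same GC content, with a difference of -1.26, and 0.0429 when positive windows without a positive neighbour were set to negative, with a difference of -1.01. Within f13 the difference was -0.674 (p = 0.453, permutation test) and within f14 it was -1.51 (p = 0.0669, permutation test).

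Pooled over autosomes, distal windows were richer in genes and GC than the rest, though not at every end. They held 2034 protein-coding genes (GENCODE, counted by gene midpoint), or 10.7 per Mb, against 8.77 per Mb in the interior and 8.05 per Mb in the centromere-proximal ends. Their mean GC content was 44.1%, against 41.8% in the interior and 41.5% at the centromere-proximal ends. Within the last 10 Mb, the tips were densest in genes, with 13.6 per Mb in the last 1 Mb and 7.63 per Mb between 9 and 10 Mb from the end. Density was as high again further in, at 14.5 per Mb from 14 to 15 Mb (GC 44.7%) and 13.8 per Mb from 17 to 18 Mb. Coverage was 5.96% in the last 1 Mb (interval 4.87% to 7.12%, n = 74 libraries), was highest from 3 to 4 Mb (6.02%) and lowest from 6 to 7 Mb (5.14%, interval 4.3% to 6.05%). Just inside the limit of 10 Mb, windows 9 to 10 Mb from the end were positive in 4.05 libraries on average (coverage 5.47%), and just outside it, windows 10 to 11 Mb from the end in 3.99 (5.39%). In 5 classes of GC content with nearly equal numbers of distal windows, from the lowest to the highest, the distal windows were positive in 3.95, 3.97, 4.53, 4.50 and 3.94 libraries on average. Interior windows in the same ranges of GC were positive in 4.08, 4.29, 4.47, 4.45 and 4.33 libraries. Both classes were therefore detected most often at middle GC, and the lowest and highest classes of the distal windows had almost the same value. Distal windows that held the midpoint of a protein-coding gene were positive in 4.34 libraries on average (n = 1503 windows), and those that held none in 4.09 (n = 3266).

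**Figure D1:**
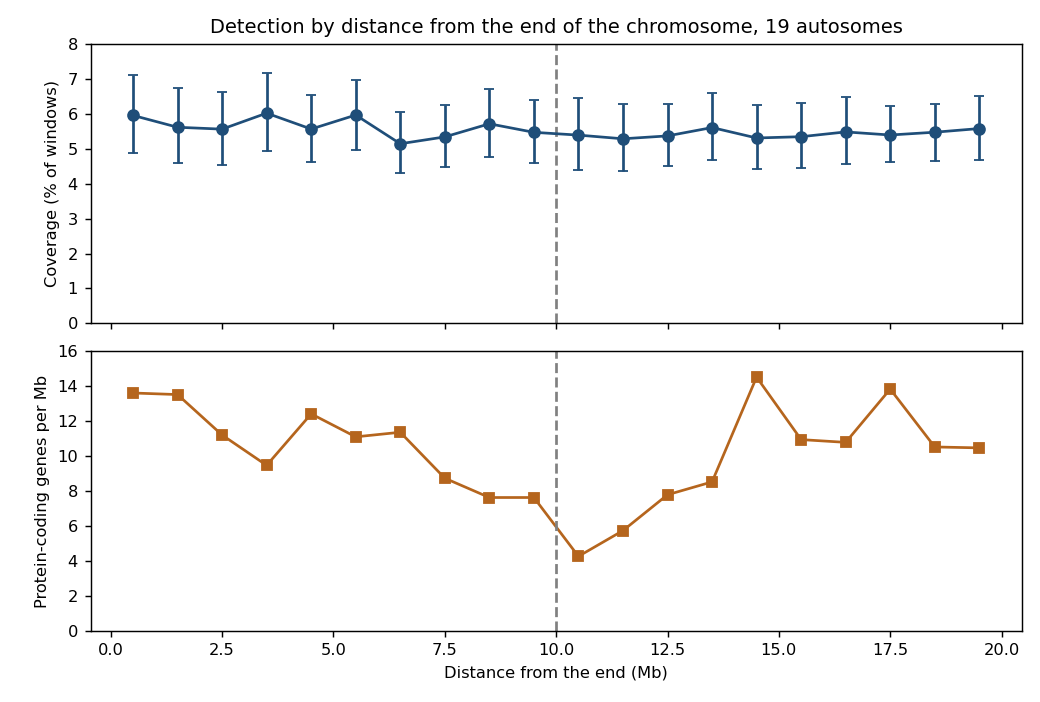
Upper panel, coverage (percent of windows positive, mean of 74 libraries with the 95% interval over resampled libraries) in bins of 1 Mb from the distal end of the 19 autosomes. Lower panel, protein-coding genes per Mb in the same bins. Coverage stays between 5.14% and 6.02% inside the last 10 Mb (dashed line), while gene density falls from 13.6 to 7.63 per Mb there and rises again to 14.5 per Mb at 14 to 15 Mb.

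To ask whether single chromosome ends depart from the rest of their own chromosome, each distal end was set against the interior of the same autosome, so that gain or loss of a whole chromosome cancels. None of the 19 passed the threshold after Benjamini-Hochberg adjustment over 19 permutation tests (0 of 19, 0%), and 2 did without adjustment (10.5%). These were the ends of chromosomes 13 and 2, both lower than their interiors. Distal coverage of chromosome 13 ranged from 0 to 29.5% over libraries, with a median of 0.598%, and averaged 4.33% ± 7.08 (SD, n = 74) against 6.73% in its interior. The difference of -2.40 percentage points (interval -4.16 to -0.646) was above 0 in 14 of 74 libraries (permutation test, p = 0.00969, adjusted p = 0.184). Chromosome 2 averaged 3.98% ± 7.11 against 6.01% in its interior (difference -2.03, -3.89 to -0.00453; higher in 17 of 74 libraries; permutation p = 0.0464, adjusted p = 0.349). Such counts were low for every end, at most 30 of 74 libraries (chromosome 9), also where the distal mean was the higher one.

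The 3 ends with the highest mean coverage were those of chromosomes 9, 18 and 16. The end of chromosome 9 averaged 7.80% ± 12.6, was touched in 44 libraries and reached 60.6% in f13b2, with a median of 2.19%. Chromosome 18 averaged 7.57% ± 11.8 against 5.62% in its interior, with calls in 42 libraries and a median of 0.797%, and chromosome 16 averaged 7.06% ± 11.6 against 5.17%, with calls in 37 libraries and a median of 0.199%. For chromosome 16 the difference was 1.90 percentage points (interval 0.113 to 3.94; higher in 29 of 74 libraries; permutation test, p = 0.0550, adjusted p = 0.349). The 3 lowest were chromosomes 2, 12 (4.01% ± 8.0, calls in 32 libraries) and 4 (4.13% ± 6.98, calls in 38 libraries). On chromosomes 2 and 4, 52 and 28 of the distal windows were never detected. Over detected windows alone, a filter that uses detection itself and was chosen after seeing the data, chromosome 2 was at 5.02% against 6.10% in its interior, chromosome 13 at 4.48% against 6.88%, and the lowest ends were chromosomes 12 (4.25%), 14 (4.32%) and 13. These values are a description, with no test. All 19 ends overlapped in their values over libraries, since each was at or near 0 in many profiles and above 28% in at least 1. Over the 19 ends, mean coverage was weakly related to GC content (Pearson r = -0.140, Spearman rho = -0.158), to genes per Mb (r = -0.165, rho = -0.147) and to coverage of the same chromosome's interior (r = 0.215, rho = 0.209). These are descriptions of 19 regions measured in the same 74 libraries.

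**Figure D2:**
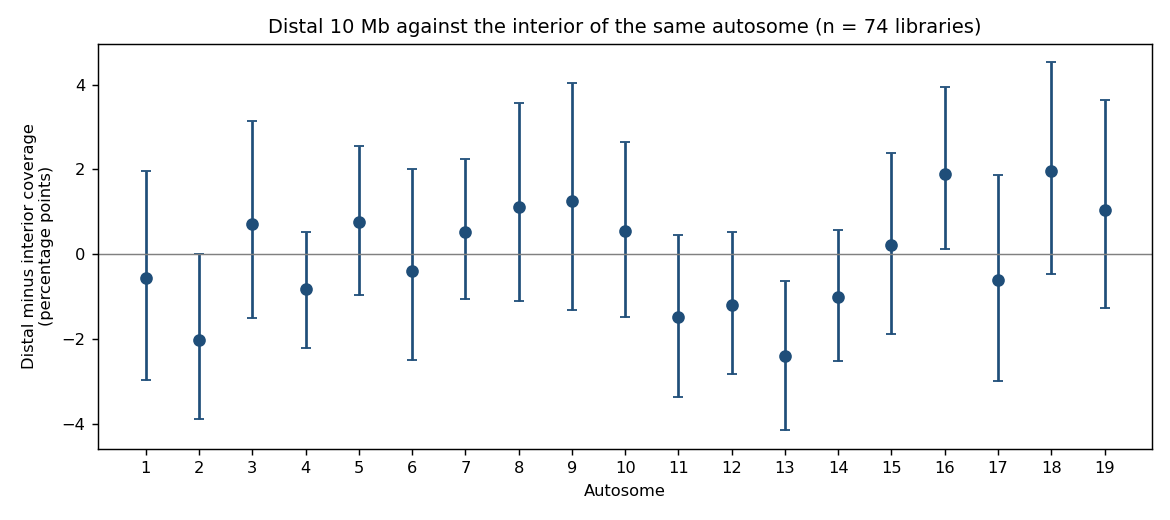
Distal minus interior coverage of each autosome, in percentage points (points, mean of 74 libraries; bars, 95% interval over resampled libraries). Chromosomes 13 and 2 lie below 0 and chromosome 16 above it by their intervals, and none passed the adjusted threshold.

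The calls behind these means were concentrated in few combinations of an end and a library. Of the 1406 combinations of an end and a library, 677 (48.2%) held no positive window. In 289 (20.6%) at least 10% of the end was positive, and these held 82.5% of all positive distal calls. Where an end passed 10%, its median coverage was 20.3%, and 7 reached 50%. The fullest was the end of chromosome 19 in f14d4, at 64.1%. A library held from 0 to 10 ends at this level, with a median of 4, and 9 libraries held none. The middle blocks and centromere-proximal ends had the same kind of pattern, with 293 and 340 combinations at 10% or more that held 81.6% and 84.4% of their calls, and with 46.7% and 39.2% of combinations empty.

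**Figure D3:**
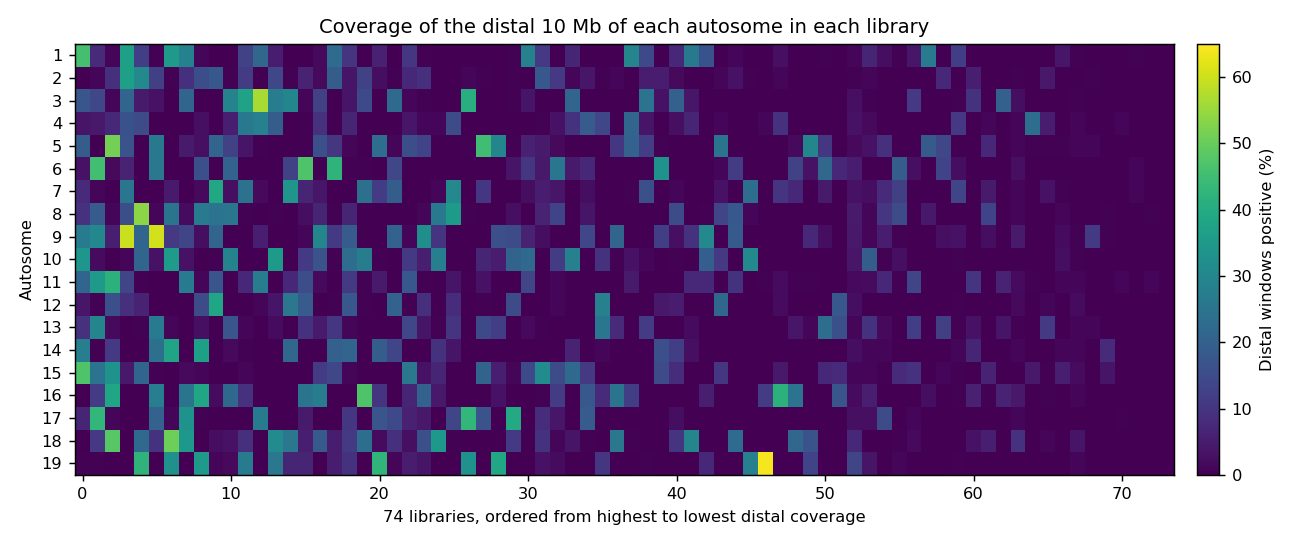
Percent of distal windows positive for each autosome (rows) in each of the 74 libraries (columns, ordered by distal coverage). Most cells are near 0 and 289 of 1406 reach 10%, spread over all 19 ends, with the highest at 64.1% for chromosome 19.

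Single distal windows were positive in 0 to 15 libraries. The most common number was 4 libraries (877 windows, 18.4%), and 301 windows (6.31%) were positive in 1. The window chr2:181640001-181680000 was positive in 15 libraries and overlaps no annotated gene. It is the third from the tip of chromosome 2, and the windows after it were positive in 4 libraries and in 1. The window chr4:146800001-146840000 was also positive in 15 and overlaps exons of Gm17317 and of Vmn2r-ps19, a vomeronasal receptor pseudogene. In 14 libraries each came chr9:119880001-119920000, which holds exons of Csrnp1, and chr9:122520001-122560000, within an intron of 9530059O14Rik. No distal window was positive in over 15 libraries (0 of 4769, 0%), and few of all autosomal windows after 3 Mb were (17 of 60391, 0.0281%). Middle windows reached at most 12 libraries, so the lack of such windows is not particular to the distal ends.

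Never detected were 166 distal windows (3.48%), against 3.2% of all autosomal windows after 3 Mb. With 74 libraries, a count of 0 allows detection in up to 4.05% of profiles. They formed 84 runs, 61 of them a single window, and 29 of the 166 held unknown bases. The longest run was chr2:175000001-176560000, where 39 adjacent windows were negative in all libraries although 9.62% of the bases were unknown. It overlaps 47 annotated genes, 27 of them protein coding, all but 2210418O10Rik named as Gm gene models (Gm14288 and Gm14305 are examples). The next longest, chr5:143200001-143480000, had 7 windows with 62.3% of bases unknown, and 3 runs had 5 windows, chr2:176600001-176800000 with 0% unknown, chr4:145800001-146000000 with 27.04% and chr16:94120001-94320000 with 99.8%.

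The last window of each chromosome is cut short by the end of the assembly, so it offers less sequence than a full window. It held 3856 to 39783 bases and was positive in 0 to 8 libraries, while the full window before it was positive in 1 to 9. The tip of chromosome 3, 39783 bases long, was the most often detected, in 8 libraries. The last window was positive in 0 libraries on chromosomes 4, 7, 11 and 13 (30120, 4553, 3856 and 4312 bases) and in 1 library on chromosomes 2, 5, 12, 15 and 18 (28087, 17259, 17530, 14974 and 12031 bases). Length, sequence and distance from the tip cannot be told apart in these windows.

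The landmark genes chosen to illustrate the distal ends lie in distal windows, and the calls give how often their DNA was sampled, not their expression. Among regulators of blood and vessels, Runx1 (chr16:92601712-92826311, minus strand), the transcription factor of definitive blood formation, spans 6 windows that were positive in 5 to 10 libraries, and 16 libraries held at least 1 of them. Prox1, the master regulator of lymphatic endothelium on chromosome 1, lay in windows positive in 6 and 7 libraries, and Sox18, which acts in the same lineage, in a window positive in 3. Rtel1, a helicase that dismantles telomeric DNA structures, lies 656766 bases from the tip of chromosome 2 and was among the least detected, in 1 and 2 libraries for its 2 windows. Of developmental transcription factors, Sox21 was positive in 7 libraries, Isl1 and Foxf1 in 6, Pdx1 and Zic2 in 5, Lhx8, Sox9 and Olig2 in 4, Hoxc8 and Vax1 in 3, and Six2 in 2. Neighbouring windows share their calls, so the windows of a single gene are not independent.

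Among genes of signalling pathways, Fgf10, a ligand of limb and lung outgrowth near the tip of chromosome 13, covered 4 windows positive in 5 to 8 libraries, although this end had a low mean coverage. In the Wnt pathway, Ctnnb1 (beta-catenin) was positive in 4 and 6 libraries and its DNA-binding partner Tcf7l2 in 2 to 8 over 6 windows, with 12 libraries holding any of them. Gli1, an effector of Hedgehog signalling, was positive in 5 libraries, the kinase gene Akt1 in 4, and Ski, a repressor of TGF-beta signalling, in 4 and 5. Prdm16, a regulator of brown fat on chromosome 4, covered 9 windows positive in 1 to 4 libraries. Of the imprinted genes at the end of chromosome 7, H19, a maternally expressed noncoding RNA, was positive in 2 libraries, its neighbour Igf2 in 3 and 5, the cell cycle inhibitor Cdkn1c in 4, and the potassium channel gene Kcnq1 in 2 to 6 over 9 windows, with 13 libraries holding any of them. No test was made between genes.

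Linkage along the chromosome was next compared between distal and interior windows. Concordance, the percent of windows next to a positive window that were also positive, was 46.9% in distal windows and 48.01% in the interior, a difference of -1.10 percentage points (interval -2.61 to 0.411; higher in 34 of the 70 libraries with at least 10 positive windows in each; permutation test, p = 0.171). It was -0.494 within f13 (p = 0.670, permutation test) and -1.62 within f14 (p = 0.157, permutation test). Neighbouring distal windows 0.04 Mb apart were found together in 2.95% of profiles, windows 0.2 Mb apart in 2.3%, 1 Mb apart in 1.59% and 4 Mb apart in 1.10%. The interior gave 2.99%, 2.31%, 1.59% and 1.00%. Divided by the product of the detection frequencies, which is what independent windows would give, distal co-segregation was 8.09, 6.61, 4.72 and 3.34 times that value at the 4 distances, and interior co-segregation 8.01, 6.41, 4.59 and 3.0 times. In both classes the ratio fell at each step of distance.

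No difference passed the sign-flip permutation test over libraries. For ratios this test holds the product of detection frequencies fixed, whereas the intervals recompute it in each resample. The p-values and intervals therefore measure different spreads, and a large p does not show that the classes are equal. At 0.04 Mb the ratio was higher in distal windows by 0.0771 (95% interval from the SD over resampled libraries -0.599 to 0.753; p = 0.888, adjusted p = 0.888), at 0.2 Mb by 0.198 (-0.350 to 0.745; p = 0.690, permutation test), and at 1 Mb by 0.130 (-0.274 to 0.535; p = 0.751, permutation test). At 4 Mb it was higher by 0.342. The interval from the SD over resampled libraries, 0.00875 to 0.676, did not reach 0, the percentile interval did (-0.000131 to 0.696), and the permutation test gave p = 0.306 (adjusted p = 0.888; higher in 33 of 74 libraries). Within f13 the difference at 4 Mb was 0.317 (p = 0.397, permutation test) and within f14 it was 0.346 (p = 0.502, permutation test). At the shorter distances the f13 and f14 differences were -0.00629 and 0.172 (0.04 Mb), 0.150 and 0.309 (0.2 Mb), and 0.281 and -0.0216 (1 Mb). The sign thus differed between the prefixes at 0.04 and 1 Mb. Normalized linkage D′, which the study uses, averaged 0.526, 0.335, 0.0434 and -0.208 over distal pairs with both windows detected, and 0.518, 0.313, 0.0406 and -0.254 over interior pairs. With few libraries positive for any window, a pair never seen together has the lowest possible D′, and the mean lay below 0 at 4 Mb while the ratio of mean co-segregation stayed above 1. Centromere-proximal pairs gave D′ of 0.573, 0.402, 0.194 and -0.0542 and ratios of 6.97, 5.77, 4.42 and 3.15.

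Ends of different autosomes were then compared, which asks whether distal tips meet in the nucleus more often than other parts of chromosomes do. Distal windows of different autosomes were found together in 0.406% of profiles, 1.28 times the product of their detection frequencies (interval 1.15 to 1.41). The ratio was 1.21 for interior windows, 1.20 for the middle blocks and 1.41 for the centromere-proximal ends. The distal ratio exceeded the interior one by 0.0747 (interval -0.0311 to 0.180; higher in 29 of 74 libraries; permutation test, p = 0.635, adjusted p = 0.656) and the middle one by 0.0845 (-0.0390 to 0.208; 32 of 74 libraries; permutation test, p = 0.656). It was below the centromere-proximal ratio by 0.126 (difference -0.126, -0.310 to 0.0574; distal higher in 38 of 74 libraries; permutation test, p = 0.623, adjusted p = 0.656). Within f13, the distal ratio minus the interior one was 0.143 and minus the centromere-proximal one 0.0733, and within f14 these were -0.0116 and -0.334, none past the threshold (adjusted p 0.829 in f13 and 0.953 in f14 for each). As for the cis ratios, these p-values and intervals measure different spreads, and a large p does not show equality. All classes were above 1 when libraries of unequal coverage were pooled. With each library scaled by its own coverage (69 libraries at or over 1%), the distal ratio was 1.08, the centromere-proximal one 1.01, the interior one 0.946 and the middle one 0.904.

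Over all pairs of distal ends, none passed after adjustment in a permutation test within 5 strata of library coverage (0 calls, 0%; lowest adjusted p = 0.311), and 18 had an unadjusted p under 0.05 (10.5%). The same count without adjustment was 16 for pairs of middle blocks (9.36%), 16 for interiors (9.36%), 18 for centromere-proximal ends (10.5%) and 15 for whole autosomes (8.77%), so the share of distal pairs was near that of the other classes. The ratio of observed to shuffled co-segregation had a median of 1.11 over distal pairs, with 103 pairs above 1, and ran from 0.390 to 2.1. The highest was the pair of chromosomes 6 and 13, whose ends were found together in 0.572% of profiles, averaged over window pairs, against 0.273% after shuffling (ratio 2.1; permutation test, p = 0.00270, adjusted p = 0.311), with both at 10% or more in 6 libraries. Chromosomes 11 and 15 (2.07; 5 libraries) and chromosomes 3 and 4 (1.93; 4 libraries) followed. The lowest were chromosomes 11 and 19 (0.390), 1 and 12 (0.466) and 4 and 14 (0.480), each with 0 libraries in which both ends reached 10%.

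**Figure D4:**
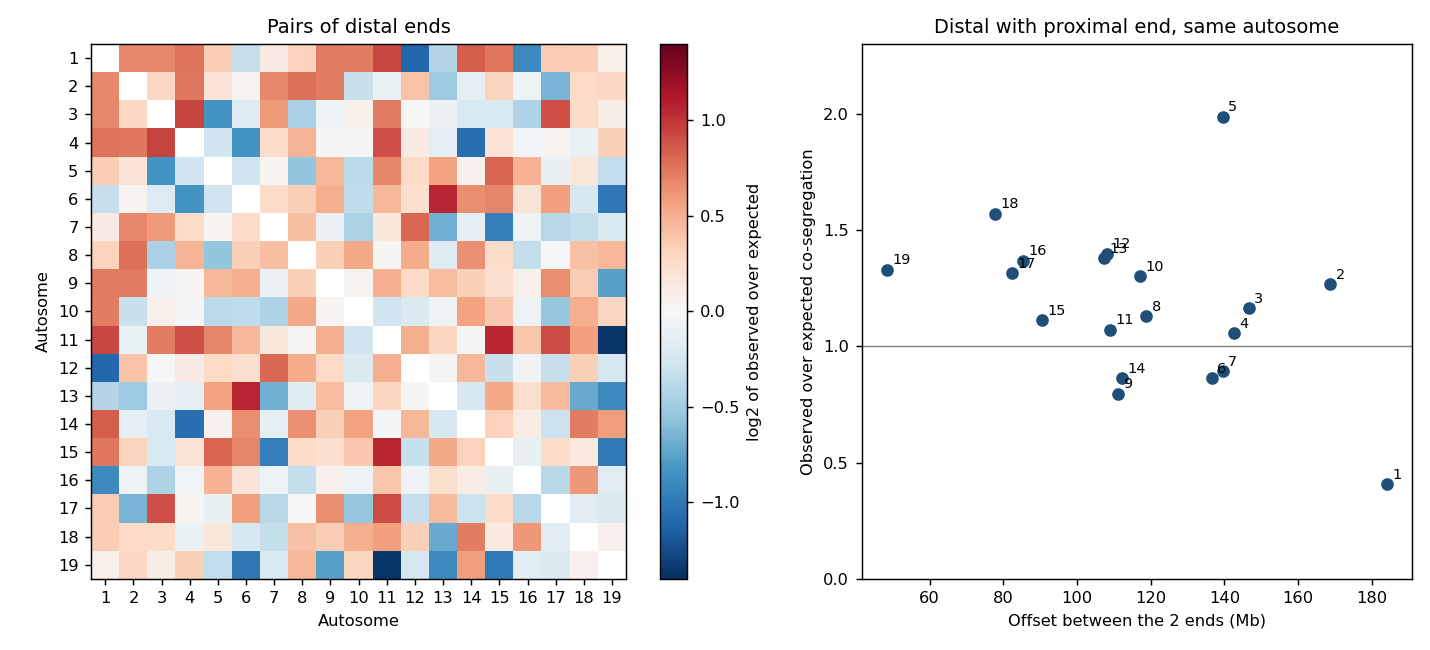
Left, log2 of observed over shuffled co-segregation for each pair of distal ends. Right, the same ratio (linear) for the distal and centromere-proximal end of the same autosome against the offset in Mb between them, each point an autosome by number. Distal pairs range from 0.390 to 2.1, and chromosome 5 is highest (1.99) and chromosome 1 lowest (0.406) on the right.

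The distal end was found with the centromere-proximal end of its own autosome more often than with those of other autosomes. Both ends of a single autosome co-segregated in 0.549% of profiles, averaged over window pairs, 1.43 times the product of detection frequencies (interval 1.17 to 1.68), and distal ends with the centromere-proximal ends of other autosomes in 0.439%, 1.15 times (1.03 to 1.28). With each library scaled by its own coverage (69 libraries) these ratios were 1.13 and 0.818, so the value for other autosomes lay below 1. Unscaled, the ratios differed by 0.275 (interval 0.0848 to 0.464; higher in 43 of 74 libraries; two-sided sign-flip permutation test, p = 0.00702). Within f13 the difference was 0.299 (p = 0.0134, permutation test, n = 34), and within f14, where it did not pass, it was 0.238 (p = 0.177, permutation test, n = 40). Leaving out each library in turn gave 0.231 to 0.319, with p from 0.00122 to 0.0128 in the permutation test, and leaving out each autosome gave 0.235 to 0.324, with p from 0.00158 to 0.0209. In counts, of the 289 times a distal end reached 10% coverage, the centromere-proximal end of the same autosome did so in 102 (35.3%), against 1410 of 5202 (27.1%) for centromere-proximal ends of other autosomes in the same libraries.

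For single autosomes, no pair of ends passed after adjustment (0 of 19, 0%), and 1 did without (5.26%). This was chromosome 5, at 1.99 times the co-segregation of shuffled libraries (0.803% against 0.404%; permutation test, p = 0.0246, adjusted p = 0.384), with both ends at 10% or more in 9 libraries. Within the f13 libraries alone chromosome 5 passed, at 2.12 times (permutation test, adjusted p = 0.00380). This was the only such call over all settings run, and the adjustment covers the 19 autosomes of that setting alone. Within the f14 libraries no autosome passed (0 of 19). Chromosomes 18 (1.57) and 12 (1.4) came next. Chromosome 1, the longest, was lowest at 0.406 (permutation test, p = 0.0800), followed by chromosomes 9 (0.797) and 6 (0.863). The ratio was above 1 in 14 of 19 autosomes. Relative to independence, it averaged 1.55 over the 9 autosomes whose ends are offset by 48.3 to 111 Mb and 1.33 over the 10 with an offset of 112 to 184 Mb, and the groups overlapped (0.936 to 1.95 and 0.439 to 2.16).

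Along the whole arm, co-segregation of the distal 10 Mb with successive blocks of the same autosome fell with distance. It was 2.67 times independence for the adjacent block (interval 2.36 to 2.98), 2.17 at an offset of 30 Mb, 1.89 at 50 Mb and 1.57 at 70 Mb. From 70 to 110 Mb it stayed between 1.54 and 1.62, and at 110 Mb, over 11 autosomes, it was 1.55 (1.27 to 1.82). Starting from the centromere-proximal 10 Mb, the ratio was 2.71 for the adjacent block, 1.97 at 50 Mb, 1.89 at 70 Mb and 1.47 at 110 Mb. The intervals from both origins overlapped at every offset, and the difference between them was not tested. Fewer autosomes are long enough at the larger offsets, so the points do not average the same chromosomes.

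**Figure D5:**
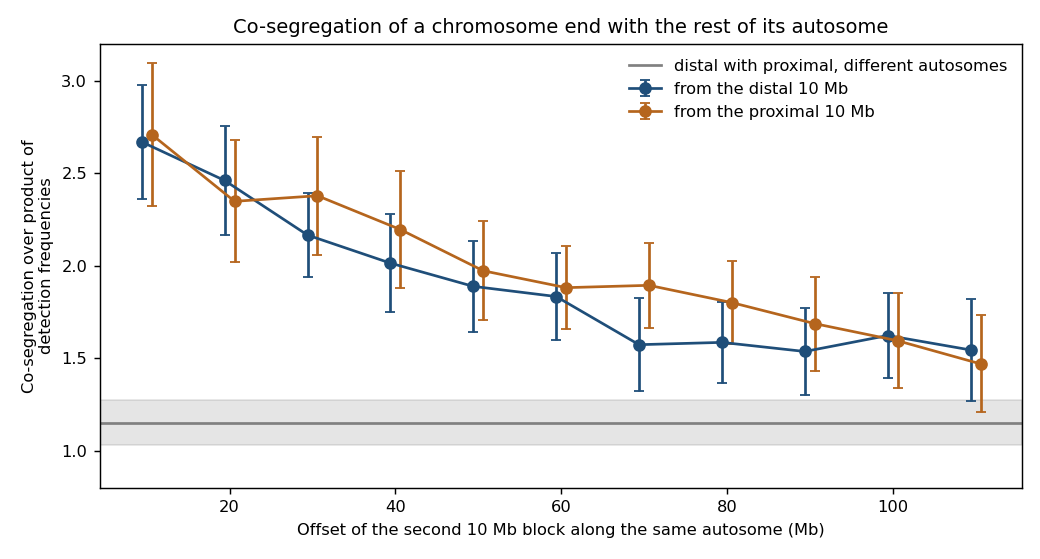
Co-segregation of the distal (blue) or centromere-proximal (orange) 10 Mb with successive 10 Mb blocks of the same autosome, divided by the product of detection frequencies (points, 19 to 11 autosomes; bars, 95% interval from the SD over resamples of the 74 libraries), against offset in Mb. The grey line and band give distal with centromere-proximal ends of different autosomes, 1.15 (1.03 to 1.28), which is 0.818 with libraries scaled by their own coverage. This was the lowest class of different autosomes, and centromere-proximal ends among themselves reached 1.41. No value is given for an end with interior blocks of other autosomes. The distal curve falls from 2.67 to 1.55 at 110 Mb.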

How the data were processed

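The authors aligned reads to mm9 (Bowtie2 2.1, per the submitters' processing notes) and deposited presence (1) or absence (0) calls per 40 kb window for 74 libraries of amplified DNA from laser-dissected profiles. The study describes a read threshold in GAMtools for multiplex libraries. Settings for single profiles and the quality control are not given in the sources used here, and a threshold can drop windows of shallow libraries. Coverage, co-segregation, its ratio to the product of detection frequencies, and D′ were computed in Python 3.11.15 with numpy 2.4.6 and pandas 2.3.3. Sequences and genes came from NCBIM37 and GENCODE vM1, whose lengths equalled the last window ends of all 19 autosomes. Libraries are 1 group, numbered in accession order as names only. The study's sample list puts both prefixes under a single biological replicate, so p-values measure the spread between profiles, which may be technical. Differences were tested by sign-flip permutation over libraries (100000 resamples, smallest p 1e-05) and pairs of ends by shuffling within 5 coverage strata (10000 resamples, smallest p 0.0001), adjusted by Benjamini-Hochberg, threshold 0.05. Intervals are 95% and come from resampling whole libraries with replacement (10000 resamples, 1000 for cis pairs), never windows. For ratios, the product of detection frequencies was recomputed in each resample but held fixed in the sign-flip test, so interval and p can differ. For ratios, the interval from the SD of the resamples replaced the percentile interval after both had been seen. At 4 Mb this moved the lower limit from below to above 0, and both are given there. Scripts were tested on simulated data. Named chromosomes and pairs were those past the threshold, otherwise the highest and lowest 3, with any that passed unadjusted. Named windows and libraries were the top 3, with ties. Runs of windows and the sequences shown were chosen after their values were seen. A few listed items are not reported here. Members, gene list and tests were chosen with earlier results of these data known. Alternatives were other end sizes, GC weighting, windows without unknown bases or in over 15 libraries, isolated calls, sparse libraries, prefixes, 200 kb windows, strata and library weighting.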

Additional observations from a re-analysis of the deposited data

Results flagged for a closer look

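The distal 10 Mb of chromosome X lie outside the comparisons above, which use the autosomes, and carried signal. Its 251 windows had a coverage of 1.38% ± 3.56 (SD, n = 74 libraries), with a positive window in 28 libraries. The rest of chromosome X after 3 Mb had 2.14% ± 3.18, and the autosomal distal ends had 5.64%. The number of copies of chromosome X in these cells is not given in the labels, and its part in these values was not tested.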

How the results depend on the processing

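Of 140 recomputed values, 128 were unchanged, as differences that kept direction and side of the threshold or as counts that stayed the same. Only distal against centromere-proximal linkage within an autosome had passed in the main setting, and it gave 13 of the 128. The others had not passed and again did not, so the total is no measure of robustness. Distal minus interior coverage turned to 0.274 in f13 libraries and 0.0153 with ends of 2 Mb, a size added after seeing the data. The cis difference turned to -0.00629 at 0.04 Mb in f13, and at 1 Mb to -0.0856 with ends of 20 Mb and -0.0216 in f14. The trans difference turned to -0.0116 against the interior in f14, and against centromere-proximal ends to 0.0733 in f13 and 0.0741 with libraries weighted equally. None of these passed the threshold in either direction. Coverage against centromere-proximal ends passed with isolated calls removed (-1.01) and with GC weighting (-1.26). Distal against centromere-proximal linkage within an autosome did not pass in f14 (0.238) and passed under the other alternatives run (0.231 to 0.330, leave-one-out included; leaving out libraries or autosomes was added after seeing the data). The count of autosomes with both ends linked was 1 in f13 (chromosome 5) and 0 otherwise. Without adjustment, that count ran from 0 to 5 over end sizes, strata and windows, and distal pairs from 10 (f14) to 21 (ends of 5 Mb). The cause of these changes was not tested. Comparisons between classes of windows were paired within libraries, while single pairs of ends were tested by shuffling among libraries. No analysis paired by replicate number was possible because the labels give 1 group. A window positive in 4 of 74 libraries leaves few profiles per pair, and single profiles give no read depth, which limits single windows and single pairs most.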
